A study of Drosophila melanogaster with 2 samples.

Results

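The regions described here are those of the final peak list that held more than 1 summit: 163 of the 5920 distinct regions of that list (2.75%). They were chosen by their coordinates alone, as chromosome, start and end repeated in at least 2 rows of the list, each row with a summit of its own. Of the 163 regions, 155 held 2 summits and 8 held 3, so that 334 of the 6091 final peaks (5.48%) lay in them, against 5757 regions of 1 summit. The data come from transcription factor chromatin immunoprecipitation with sequencing (ChIP-seq) on whole Drosophila melanogaster embryos, aged 0 to 16 hours and of both sexes, from a transgenic line with CG9437 fused at its C terminus to GFP. The labels tie the insertion to hng1. There were 2 biological replicates of this 1 group and 1 control alignment common to both, so every comparison is between regions of 1 genome and none between conditions. The labels state neither the promoter that drives the transgene nor whether the animals kept the untagged gene, and whole embryos mix all cell types, so a region with several summits need not hold them in the same cell.

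In a ChIP-seq peak list, a region is a stretch of enriched reads and a summit is the position in it where the enrichment is highest. When several places of contact lie closer together than the sonicated fragments are long, their reads overlap, and a peak caller can report them as 1 region with several summits or as neighbouring regions. The tagged protein hng1 (hinge1) belongs to the MADF-BESS family, whose MADF domain binds DNA and whose BESS motif mediates contacts between proteins. Many Drosophila promoters are head to head: a pair of genes on opposite strands whose start sites lie close together share the sequence between them.

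Chromatin had been sonicated to 200 to 800 bp, and with no read numbers per replicate in these sources, the depth behind each value is unknown. A free-text label calls both samples an input control, whereas the assay, antibody and output type labels describe a transcription factor ChIP, and they are treated as ChIP lists on that basis. The strength of a summit is the authors' signal value, which ranks summits within 1 list and is not scaled between lists. Because the regions were selected on the final list, their number of summits, spacing, width, signal and recovery in the replicates are descriptions and carry no test. Position relative to genes and DNA sequence played no part in the choice of regions and were tested. The sequence tested, the word ACGTAA, had however been picked in earlier results on these data, where it went with signal. The regions that the rule takes are strong, so the test of the word against all regions of 1 summit is not independent of signal.

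The sequences that follow show where a 6-letter word, ACGTAA, lay in regions of high signal, in which the word was at both of the strongest summits (mxt and CG11927, DCP2 and dbo), at the strongest only (frtz, Ank2 and Mcad) or within 50 bp of neither (NTPase, stx). Each is a window of 300 bases of the plus strand of dm6, taken from the RefSeq copy of that assembly, centred between the 2 strongest summits and free of annotated exons. Capitals mark ACGTAA or its reverse complement TTACGT, and all other bases are in lower case.
mxt and CG11927, chr2L:4847318-4847617: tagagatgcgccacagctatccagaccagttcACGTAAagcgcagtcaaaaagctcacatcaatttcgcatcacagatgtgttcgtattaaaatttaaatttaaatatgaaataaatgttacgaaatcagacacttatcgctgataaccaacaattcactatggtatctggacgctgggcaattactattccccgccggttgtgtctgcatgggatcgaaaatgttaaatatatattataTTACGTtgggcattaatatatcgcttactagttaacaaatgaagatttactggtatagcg
DCP2 and dbo, chr3L:15826538-15826837: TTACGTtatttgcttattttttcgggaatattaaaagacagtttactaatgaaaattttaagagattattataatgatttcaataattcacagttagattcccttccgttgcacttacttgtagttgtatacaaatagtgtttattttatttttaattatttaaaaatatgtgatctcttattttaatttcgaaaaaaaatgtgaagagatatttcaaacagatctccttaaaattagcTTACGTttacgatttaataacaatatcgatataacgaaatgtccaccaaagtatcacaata
frtz, chr2L:1715853-1716152: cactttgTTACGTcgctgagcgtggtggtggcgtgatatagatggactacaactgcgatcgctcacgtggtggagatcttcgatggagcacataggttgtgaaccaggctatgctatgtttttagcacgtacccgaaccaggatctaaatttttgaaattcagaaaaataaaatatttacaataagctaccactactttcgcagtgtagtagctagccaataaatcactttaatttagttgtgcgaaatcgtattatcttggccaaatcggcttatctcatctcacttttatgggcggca
Ank2 and Mcad, chr3L:7718822-7719121: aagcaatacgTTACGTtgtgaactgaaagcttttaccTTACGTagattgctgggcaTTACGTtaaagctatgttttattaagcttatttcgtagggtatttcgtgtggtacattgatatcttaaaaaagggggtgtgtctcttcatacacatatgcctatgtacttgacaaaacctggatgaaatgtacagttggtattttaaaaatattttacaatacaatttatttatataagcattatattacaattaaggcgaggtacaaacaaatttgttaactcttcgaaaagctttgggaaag
NTPase, chr2L:2883131-2883430: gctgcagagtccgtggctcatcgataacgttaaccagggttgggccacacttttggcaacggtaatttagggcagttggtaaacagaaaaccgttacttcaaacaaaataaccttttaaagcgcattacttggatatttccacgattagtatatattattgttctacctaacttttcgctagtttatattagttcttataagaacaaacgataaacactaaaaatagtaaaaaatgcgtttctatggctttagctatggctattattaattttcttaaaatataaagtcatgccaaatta
stx, chrX:10730087-10730386: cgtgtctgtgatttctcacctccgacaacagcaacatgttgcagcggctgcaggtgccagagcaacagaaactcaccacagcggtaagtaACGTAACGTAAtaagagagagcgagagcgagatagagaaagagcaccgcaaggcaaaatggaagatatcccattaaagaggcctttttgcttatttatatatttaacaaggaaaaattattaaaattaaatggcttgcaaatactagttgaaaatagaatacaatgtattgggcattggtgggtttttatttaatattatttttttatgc

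In the mxt and CG11927 window the strongest summit is at base 48 and the second at base 252, and the words start at bases 33 and 241. In that of DCP2 and dbo the summits are at bases 46 and 254 and the words at 1 and 240. The frtz window has its strongest summit at base 42, its second at 258 and its word at 8, beside the strongest summit. In the Ank2 and Mcad window all 3 words, at bases 11, 38 and 57, lie on the side of the strongest summit, at base 14, and none lies near the second, at 287. The NTPase window, with summits at bases 28 and 272, holds no copy. The stx window has an overlapping pair of words, at bases 91 and 96, more than 50 bp inward of its strongest summit, at base 27.

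The summits of 1 region lay close to a single distance from each other. Over the 171 gaps between neighbouring summits, the distance ranged from 199 to 1094 bp, with a median of 207 bp and quartiles of 202 and 221.5 bp. A total of 54 gaps (31.6%) were at most 202 bp, 94 (55.0%) at most 210 bp and 128 (74.9%) at most 220 bp, while 9 were over 300 bp and 4 over 500 bp. The lower end was sharp, with 9 gaps at 199 bp and none below. The same 199 bp was the smallest gap between any 2 summits in each of the 4 deposited lists, the final list, the pooled candidates and the candidates of either replicate, whether or not the summits shared a region. The distance therefore sits at the smallest value that occurs in the deposited lists, and the part of the peak calling in it was not tested.

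**Figure D1:**
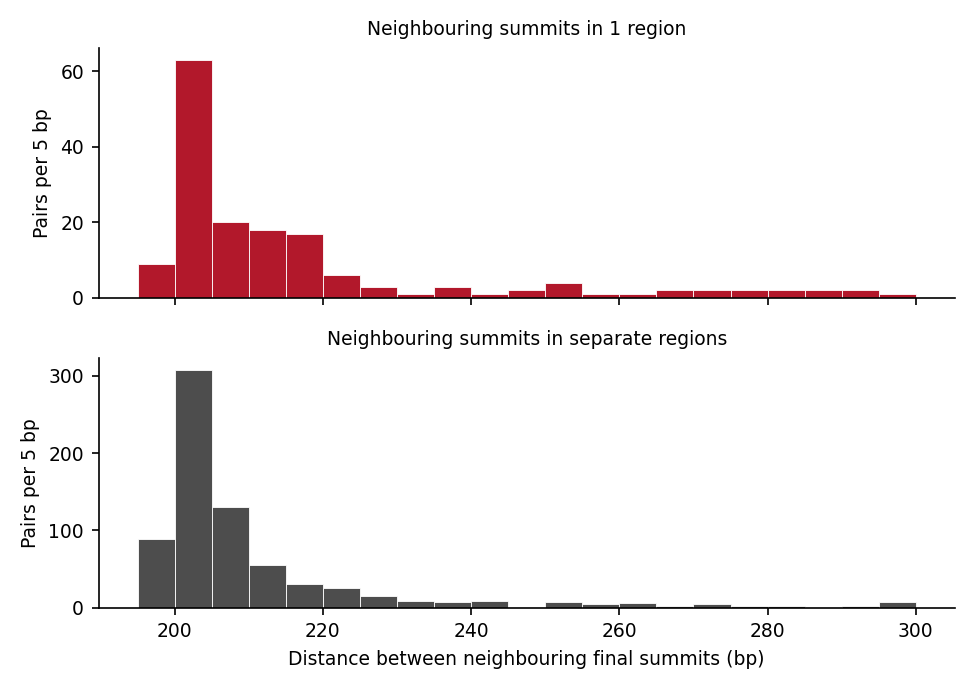
Distance in bp between neighbouring final summits up to 300 bp apart (x axis, bins of 5 bp) against the number of pairs (y axis), for the 162 pairs within 1 region (top) and the 723 pairs in separate regions (bottom). Both begin at 199 bp and crowd there, with medians of 206.5 and 203 bp.

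Close summits were more often listed in separate regions than in 1. Of 885 pairs of neighbouring final summits within 300 bp of each other, 162 (18.3%) lay in 1 region and 723 in separate regions, of which 698 had regions that overlapped. Pairs in separate regions had about the same spacing (median 203 bp against 206.5 bp) and weaker summits. Their medians were 400.4 for the stronger summit and 212.8 for the weaker, against 1374 and 492.8 for pairs in 1 region. At least 1 of the regions had the list's common width of 530 bp in 579 of the 723 pairs. At distances of 301 to 1100 bp, 9 of 326 neighbouring pairs lay in 1 region. The rule thus takes the strong close pairs, not all close pairs.

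The 4 widest spacings of the 2 strongest summits were found at fs(1)h and mys (1094 bp), at Gnpnat, CIA30 and CG7601 (1064 bp), at larp (891 bp) and in Raf (635 bp). The region of fs(1)h, a BET bromodomain protein, and mys, an integrin beta subunit, spans chrX:8059661-8061873 and is the widest of the 163 at 2213 bp. Its strongest summit, in an intron 626 bp downstream of the nearest fs(1)h start site, had a signal of 4380 in the pooled list, 1868 in replicate 1 and 2551 in replicate 2. Its second, at -6 bp from an fs(1)h start site (minus signs mark upstream positions), had 3578, 1900 and 1722. The order of the summits was therefore opposite in the replicates. Gnpnat encodes a glucosamine-phosphate acetyltransferase and CIA30 an assembly factor of respiratory complex I. Their region, chr3R:29736451-29738366, had summits at -240 bp from the start of Gnpnat (3176; replicates 1495 and 1684) and 6 bp downstream of a CIA30 start (2963; 1487 and 1506), which were nearly equal in both replicates. The region of larp, an RNA-binding protein of the La-related family, spans chr3R:28335124-28337035, and its summits lay at -148 and -140 bp from different larp start sites. The first was the third strongest summit of the whole list, at 18400 (9985 and 8424), and the second had 2114 (1403 and 744.6).

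At the narrow end, 199 bp separated the summits of MICU3, a relative of the mitochondrial calcium uptake proteins, of Asx and Cpsf160, of an intronic region of the reticulon gene Rtnl1, and of lncRNA:CR43650. In the MICU3 region, chr3R:19846631-19848299, the strongest summit lay at -4 bp from the start site (12145; 6197 and 6345 in replicates 1 and 2) and the second 195 bp downstream (5984; 2390 and 3881). Both replicates listed these summits in 1 region, 203 and 210 bp apart. At Asx, a Polycomb group gene, and Cpsf160, a subunit of the cleavage and polyadenylation complex, the strongest summit had 2286 (1326 and 1004). The second had 154, was not found in replicate 1 and had 270.7 in replicate 2.

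Regions with several summits were wider than those with 1. Their widths ranged from 243 to 2213 bp, with a median of 699 bp and quartiles of 531.5 and 919.5 bp. Among regions of 1 summit, 3980 of 5757 (69.1%) had exactly the common width of 530 bp, and 1 of the 163 did. The remaining 1777 regions of 1 summit had a median width of 281 bp, within a range of 132 to 1632 bp. Above 530 bp lay 122 of the 163 regions (74.9%) and 148 regions of 1 summit (2.57%). The common width was 516 bp in the list of replicate 1 and 576 bp in that of replicate 2. From the lowest signal quartile to the highest, the median widths were 485, 597.5, 689 and 1155 bp with several summits and 328, 455.5, 499 and 1081 bp with 1 summit of the same signal range. A region must reach from one summit to the next, so part of this difference follows from the choice itself.

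**Figure D2:**
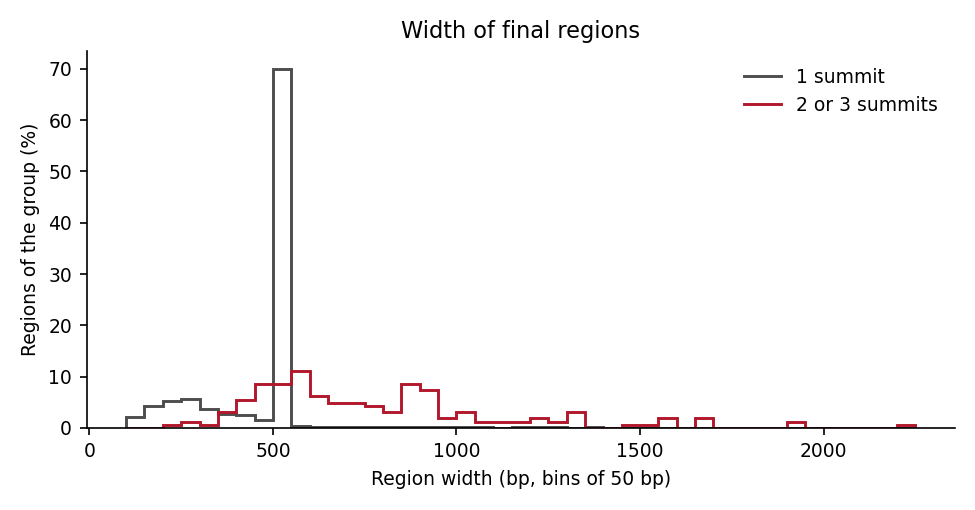
Width of final regions in bp (x axis, bins of 50 bp) against the percentage of each group (y axis), for the 5757 regions of 1 summit (grey) and the 163 of 2 or 3 (red). The grey column at 500 to 550 bp holds the regions of the common width of 530 bp, and the red line spreads from 243 to 2213 bp.

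The regions belonged to the strong end of the list. The strongest summit of a region had a median signal of 1394, within a range of 479.7 to 18400, and a median rank of 248 among the 6091. Of the 163 regions, 70 had their strongest summit among the first 200 ranks and 157 among the first 1000. Regions of 1 summit had a median signal of 250.3, and 4731 of the 5757 (82.2%) lay under the lowest strongest signal of any region with several. The second summit had a median of 495 (148.3 to 8341) and a median rank of 1225. In relation to the strongest summit of its region it reached a median of 35.5%, with quartiles of 21.9% and 49.3%. The second summit exceeded 50% of the first in 37 regions and 90% in 5, and it was under 10% in 11. No second summit could be below 148.3, the lowest signal of the final list, so small percentages were possible only beside a strong first summit.

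The strongest summits after larp were those of Gdi with CG33298, MICU3, frtz, an intron of CadN, CG32262, eIF4A, CG1648, the sequence near E2f2, and Ank2 with Mcad, from 12828 down to 5685. Gdi encodes the Rab GDP dissociation inhibitor of vesicle traffic. Its region, chr2L:9494381-9495701, had the highest second summit of all, 8341 (3827 and 4147 in the replicates), 253 bp from a first summit of 12828 (6586 and 6923). The second thus stood at 58.1% and 59.9% of the first in replicates 1 and 2. At frtz (chr2L:1715353-1716453), a planar cell polarity gene, the summits at -43 and -259 bp from the start site had 10758 (5930 and 4900) and 3044 (965 and 2114). The second summit was at 16.3% of the first in replicate 1 and at 43.2% in replicate 2.

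At CadN, eIF4A, CG1648 and mRRF1, where the first summit was strong and the second weak, neither replicate held a separate summit within 100 bp of the pooled second. CadN encodes N-cadherin. Its region, chr2L:17715368-17716522, had 7737 (4455 and 3353) at a first summit in an intron and a pooled second of 1065 in a coding exon. For the translation initiation helicase eIF4A the pooled values were 7201 (3632 and 3622) and 724.3. The most unequal pair of all was at CG1648, 6138 (2726 and 3494) and 249.4, or 4.06%. It was followed by Asx and Cpsf160 (6.74%), E2f2 (7.70%) and mRRF1, which encodes a mitochondrial ribosome recycling factor (7.73%). Near E2f2, which encodes a repressive E2F factor of the cell cycle, the strongest summit was intergenic. The second, in a 3′ untranslated region, had 444.3 in the pooled list. Each replicate had a summit within 100 bp of it, at 263.1 and 1181. The spacing from the first summit was 262 and 211 bp there, against 297 bp in the pooled list, so the positions differ.

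Nearly equal pairs were at RnrS with CG34231, where the signals were 829.3 and 826.3 (99.6%), in Raf (98.4%), at PGAP2 with Clp (96.1%) and at conv with Sps1 (94.4%). RnrS encodes the small subunit of ribonucleotide reductase. At RnrS, replicate 1 had 371.8 and 438.4, the opposite order. Replicate 2 had 465.8 at the first summit and none within 100 bp of the second. At PGAP2 and Clp (2407 and 2313), and at conv and Sps1 (1059 and 1000), the pooled first summit was found in neither replicate, and the second was found in both. In Raf, which encodes the kinase that links Ras to MEK, the region chrX:2296069-2297125 held 3 summits of 571.4, 562.2 and 546.8. Replicate 1 had 81.18 and 397 at the first and second of them. Replicate 2 had 506.3 at the first and none within 100 bp of the second.

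The 8 regions of 3 summits were those of larp, Gnpnat with CIA30 and CG7601, Tlk, scrib, lbk, CG10802 with CG10804, CG9849 with CNBP, and Raf. Tlk (Tousled-like kinase) had 3130, 938.1 and 864.1, and scrib, a cell polarity scaffold, had 3011, 2189 and 577.5, with the 2 strongest summits of each in an intron. Both replicates had the 2 strongest summits of each of these in 1 region. In scrib the replicate values were 1326 and 1836 at the first summit and 850.6 and 1219 at the second. The third summit ranged from 226.6 at Gnpnat to 864.1 in Tlk. Raf and Rtnl1 were among the genes with 2 of the 163 regions. The weakest 3 by first summit were CG11317 (479.7), the other region of Raf (486.8) and Cdk12 with SAK (522.2).

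Both summits were found again in both replicates in 128 of 163 regions (78.5%; exact Clopper-Pearson 95% interval 71.4 to 84.6), counting a candidate summit within 100 bp as found. The number was 135 in replicate 1 (82.8%) and 146 in replicate 2 (89.6%). The final list was made from these replicates, so this recovery follows in part from how the list was built. The order of the summits by signal was that of the pooled list in both replicates in 127 of the 128 regions, the exception being fs(1)h and mys. The second summit stood at a median of 35.9% of the first in replicate 1 and 39.2% in replicate 2, and the percentages of the replicates had a Spearman rho of 0.64 across the 128 regions, which share both libraries. The spacing had medians of 204 and 205 bp, and it was within 25 bp of the pooled spacing in 109 regions in replicate 1 and 108 in replicate 2. The 35 regions not found in both had a weaker pooled second summit, with a median of 23.7% of the first against 36.1%.

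The replicates' own lists did not always place the summits in 1 region. Sharing a region was counted only where both summits were found, so its counts cannot exceed those of recovery. A replicate's own list placed both in 1 region in 89 cases in replicate 1 and in 110 in replicate 2. In 73 regions both replicates did so, in 53 only 1 did, and in 37 neither did. The 53 and the 37 include regions whose summits were not both found. Among each replicate's own 6091 strongest candidates, 123 regions of replicate 1 and 213 of replicate 2 held more than 1 summit.

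**Figure D3:**
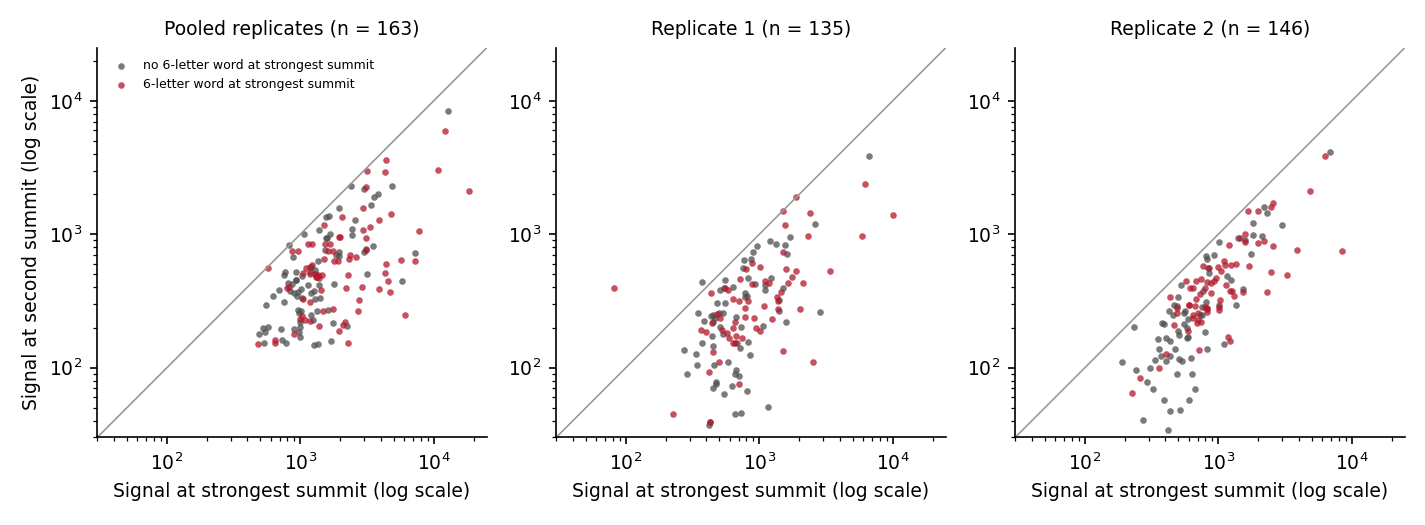
Signal at the second summit (y axis) against the strongest (x axis) of each region, both on log scales in the authors' units, for the pooled list (163 regions) and for the regions with both summits found in replicate 1 (135) and replicate 2 (146). Red points have ACGTAA within 50 bp of the strongest summit, grey points do not, and the diagonal marks equal signal; all pooled points lie under it because the axes are ordered by the pooled signal.

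Most of the regions lay at promoters, more often than regions of 1 summit but about as often as those of like signal. The strongest summit was within 500 bp of an annotated start site in 116 of 163 regions (71.2%; exact 95% interval 63.6 to 78.0), against 3093 of 5757 regions of 1 summit (53.7%; 52.4 to 55.02). By a two-sided Fisher's exact test the shares differed with an adjusted p of 1.456e-05 over the 3 shares tested, at an odds ratio of 2.13 with a 95% interval of 1.51 to 2.99. Promoter position goes with signal in these data, and the regions that the rule takes are strong. Within quartiles of the regions' strongest signal, the shares with several summits were 65.9%, 57.5%, 78.0% and 82.9% from the lowest quartile to the highest. Regions of 1 summit in the same signal ranges had 66.5%, 61.5%, 78.5% and 82.9%. The common odds ratio over the quartiles was 0.94 (0.63 to 1.4).

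**Figure D4:**
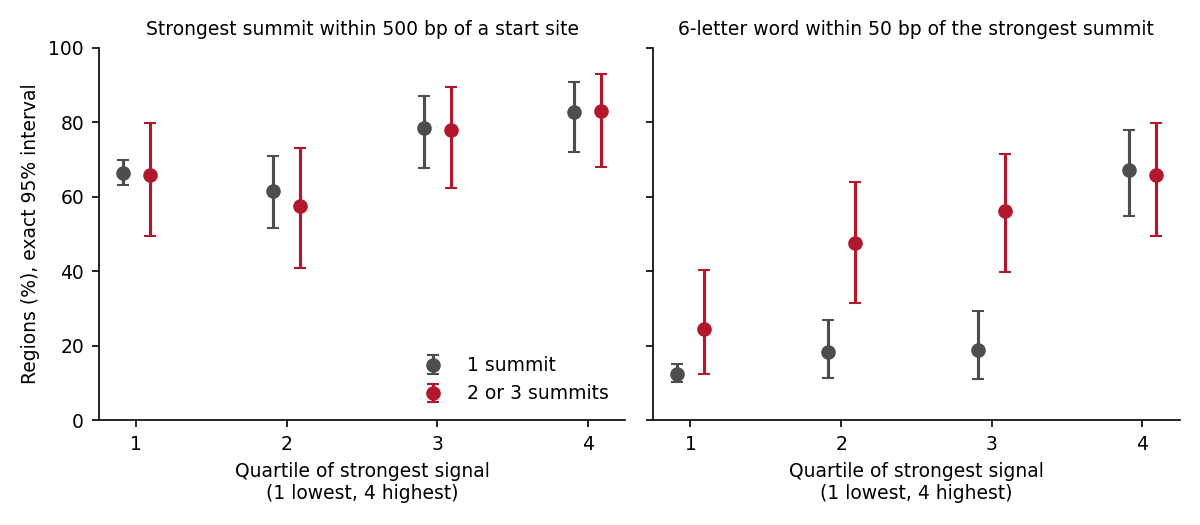
Percentage of regions (y axis, with exact 95% intervals) with a start site within 500 bp (left) or ACGTAA within 50 bp (right) of the strongest summit, in quartiles of the strongest signal (x axis), for regions of 2 or 3 summits (red) and of 1 (grey). The promoter shares of both groups lie within each other's intervals in every quartile, and the word shares are apart in quartiles 2 and 3 and meet at 65.9% and 67.1% in quartile 4.

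The second summit was within 500 bp of a start site in 110 regions (67.5%), both summits were in 107, and neither was in 44. Outside promoters, and as shares of all regions, introns held 32 strongest summits (19.6%) against 31.5% of regions of 1 summit. Intergenic sequence held 9 (5.52%) against 12.02%. As shares of all regions, these values fall where the promoter share rises, and they were not compared at like signal. Coding exons held 2, 3′ untranslated regions 3 and other exons 1. The strongest of the intronic regions were in CadN, in mura (4785) and at fs(1)h.

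Among the 111 regions with a protein-coding start site within 500 bp of the strongest summit, the share at head-to-head promoters did not pass the test against regions of 1 summit. A pair of genes head to head was present in 37 (33.3%; 24.7 to 42.9), against 1122 of 2960 (37.9%; 36.2 to 39.7), which gives an odds ratio of 0.82 with an interval of 0.55 to 1.22 and did not pass (two-sided Fisher's exact test, adjusted p = 0.3698). Within quartiles of the strongest signal the common odds ratio was 0.75 (0.48 to 1.17). Over all pooled candidates, which reach below the lowest final signal, the direction turned. There the shares were 33.6% against 24.5%, an odds ratio of 1.55 (1.09 to 2.21; exact test, adjusted p = 0.01843). A single gene was present in 71 (64.0%) against 1792 (60.5%), and genes on the same strand in 3 (2.70%) against 39 (1.32%).

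The strongest summit had a median distance from its nearest start site of -34 bp (quartiles -164.5 and 35.5), and the second summit had a median of -191 bp from that same site (-307.5 and 62). The site was chosen as the one nearest to the strongest summit, which favours the strongest as the nearer, so the distances are a description. Regions of 1 summit had a median of -105 bp (-207.2 and -11). The strongest summit was upstream in 70 of 111 regions (63.1%), the second in 77 (69.4%), and the summit of regions of 1 in 2283 of 2960 (77.1%). Most regions of 1 summit were weaker, and neither the distances nor these shares were compared at like signal. Both summits were upstream in 58 regions. The start site lay between the summits in 31, with the strongest downstream in 19 and upstream in 12, and both were at or downstream of it in 22. In 88 regions both summits had the same nearest gene, with the strongest nearer to its own nearest start in 59 and the second in 29, and in 23 regions they had different genes.

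**Figure D5:**
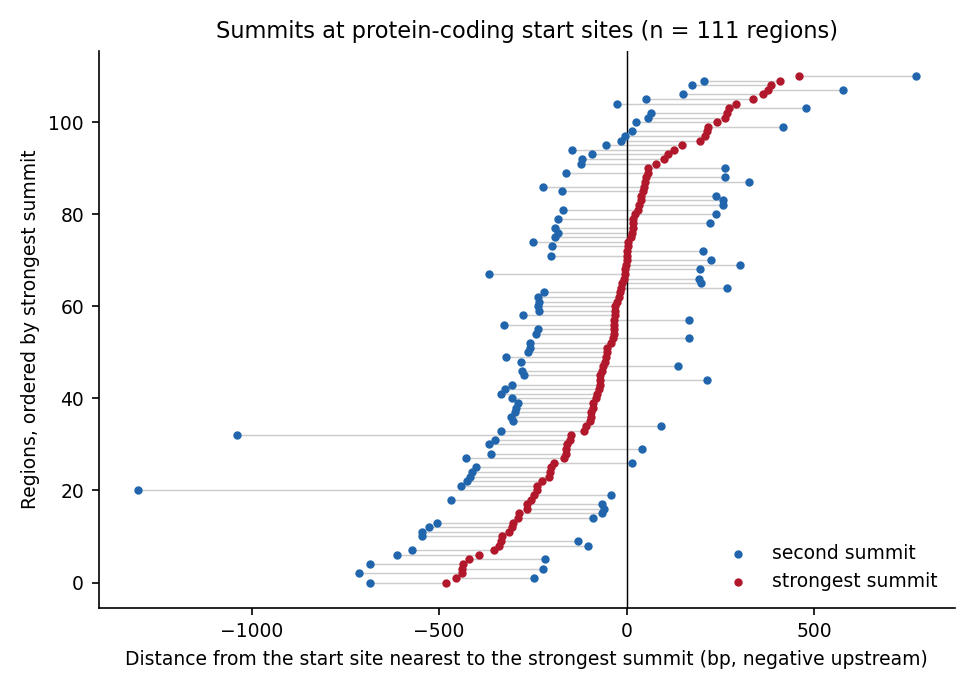
Distance in bp of both summits from the start site nearest to the strongest summit (x axis, negative upstream), for the 111 regions at protein-coding start sites (y axis, ordered by the strongest summit). Strongest summits (red) centre on -34 bp and second summits (blue) on -191 bp, and the grey line joins the summits of a region.

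In the 37 head-to-head regions the paired start sites were 27 to 687 bp apart, with a median of 307 bp. The summits were nearest to different genes of the pair in 21 of them. Both summits lay between the start sites in 15, the strongest did in 27 and the second in 17. The strongest was that of mxt, which encodes an eIF4E-binding translation factor, and CG11927 (chr2L:4846970-4847891). Its start sites are 471 bp apart, with 1 summit at -70 bp from mxt (4335; 2387 and 1981 in the replicates) and the other at -197 bp from CG11927 (2909; 1449 and 1495). DCP2, the mRNA decapping enzyme, and dbo, a BTB-kelch adaptor, had summits at -160 bp from DCP2 (3126; 1555 and 1591) and at -97 bp from dbo (2276; 1174 and 996.4). The mitochondrial ribosomal protein gene mRpS24 and Apc2, a negative regulator of Wnt signalling, had 2578 (1208 and 1408) and 1284 (887.7 and 933.1). In these 3 regions the stronger summit was the same in both replicates. Of the 21 regions whose summits lie nearest to different genes of the pair, the next by signal were PGAP2 with Clp, Eno (enolase) with CG31937, whose second summit was weak (2255 and 204.9), and GCS2beta with CG5131 (1943 and 691.7).

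The word ACGTAA was found beside the strongest summit of many of the regions and rarely beside the second. It had been picked in earlier results on these data, where it went with signal. It was within 50 bp of the strongest summit, on either strand, in 79 of 163 regions (48.5%; exact 95% interval 40.6 to 56.4), against 529 of 5757 regions of 1 summit (9.19%; 8.46 to 9.96). These shares gave an odds ratio of 9.29 with an interval of 6.75 to 12.8. A two-sided Fisher's exact test gave an adjusted p of 5.085e-36. Because the word was known to go with signal and the regions that the rule takes are strong, this p does not come from an independent test. Within 50 bp of the second summit the word was present in 11 regions (6.75%; 3.42 to 11.7). For scale, it was present in 15 regions (9.20%) in a window of the same size midway between the summits, in 12 (7.36%) at the same distance on the other side of the strongest summit, and in 2.66% of all windows of 101 bp on the chromosome arms. The share at second summits thus lay near that of other places beside a strong summit, and its interval lay above the share of all windows.

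The word was more frequent at strong summits of both kinds. From the lowest signal quartile to the highest, the word was at 24.4%, 47.5%, 56.1% and 65.9% of the strongest summits of regions with several, and at 12.5%, 18.3%, 19.0% and 67.1% of regions of 1 summit. The common odds ratio was 2.55 (1.72 to 3.78), and the groups were alike in the highest quartile. All 163 regions with several were also set against only those regions of 1 summit with a signal of at least 1394, the median above. Of these, 62 of 149 (41.6%) had the word, and the odds ratio of 1.32 (0.84 to 2.06) did not pass (Fisher's exact test, adjusted p = 0.2551). The signal ranges were unlike, because regions with several below 1394 were kept. In quartiles 3 and 4, where both groups start at 1394, the shares were 56.1% and 65.9% against 19.0% and 67.1%. Against regions of 1 summit at least 699 bp wide, the median width, the direction turned: 53 of 87 (60.9%) had the word, at an odds ratio of 0.60 (0.36 to 1.02; exact test, adjusted p = 0.1923). Regions with several narrower than 699 bp were kept there, so the widths were unlike too. Base composition also differed. The 101 bp at the strongest summit had a median G+C of 41.6% and those at the second 42.6%, against 32.7% at regions of 1 summit. Within the signal quartiles, from the lowest, the medians at the strongest summit were 33.7%, 40.1%, 44.5% and 43.6% with several summits and 29.7%, 29.7%, 31.7% and 37.6% with 1. Its part in the word shares was not tested.

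The nearest word within 500 bp lay at a median of 32.5 bp from the strongest summit (123 regions) and 191.5 bp from the second (121 regions), which is close to the usual spacing of the summits. It was within 15 bp of the strongest summit in 37 regions and of the second in 5. Per kb of region there were 2.00 words with several summits, 0.72 with 1 and 0.29 on the arms as a whole. No word was found in 49 regions, 1 word in 40 and more in 74, with 5 as the highest number.

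The word was within 50 bp of the strongest summit only in 73 regions, of the second only in 5, of both in 6 and of neither in 79. The second summit had a median of 29.97% of the first where the word was at the first only, 37.9% where it was at neither, and 70.0% where it was at both. The last rests on 6 regions, those of fs(1)h with mys (81.7%), mxt with CG11927 (67.1%), Gnpnat with CIA30 and CG7601 (93.3%), DCP2 with dbo (72.8%), PMCA on chromosome 4 (24.6%) and CG11317 (31.3%). In these, the distance between the words nearest to each summit was 1137 bp for a summit spacing of 1094 bp at fs(1)h, 1030 for 1064 at Gnpnat and 208 for 204 at mxt. At DCP2 it was 239 for 208, at PMCA, a plasma membrane calcium pump, 190 for 273, and at CG11317 155 for 202. The capitals in the mxt and DCP2 windows above are these words.

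Other words were searched in the same windows on both strands. ATCGAT, the core of the element bound by Dref and BEAF-32, was at 9.82% of strongest and 7.36% of second summits, against 5.84% of regions of 1 summit and 3.03% of arm windows. GAGAG, the core of the GAGA factor's sites, was at 17.2% and 14.7%, against 8.77% and 11.4%. TATAAA was at 12.3% and 11.7%, against 22.8% and 11.8%. CACGTG, the E-box, which shares ACGT with the word above, was at 1.23% and 1.84%, against 0.71% and 1.17%. These 4 words were described and not tested, and for each of them the exact intervals of strongest and second summits overlapped, whereas those of ACGTAA did not. The summits are ordered by signal, and ACGTAA had been picked in earlier results where it went with signal. That contrast was therefore favoured in advance for ACGTAA and does not set it apart from the other words. Both summits also come from the same regions, and the separate intervals do not use that pairing.

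Few genes of any kind had a summit of these regions at a start site, and the named lists had 0 to 3 each. Over all protein-coding genes, 162 of 13945 (1.16%) had one within 500 bp, and 3373 (24.2%) had the summit of a region of 1. Of the cytosolic ribosomal protein genes, components of the ribosome, 3 of 85 had one, against 65 with a region of 1 summit. Among them were RpLP1 and RpS27, in regions with 1563 and 935.3, and 1000 and 203.2, at the first and second summits. Both lie at head-to-head promoters, with CG13690 and Nup37 as partners. The first summit was nearest to CG13690 and the second to RpLP1 in the former region. In the latter, the first was nearest to RpS27 and the second to Nup37. Of 73 mitochondrial ribosomal protein genes, 1 did (mRpS24). The Wnt list had Apc2 and fz2, a Wnt receptor (2896 and 405.8), among 23 genes, and the EGFR list had spi, the main ligand of the receptor (1014 and 385.9), among 19. The Polycomb group had Asx among 20, the cyclins and kinases had Cdk12 among 25, and the MADF-BESS family had brwl (1394 and 332.1) among 9. None was found among 16 Notch, 15 Hippo, 18 insulin and PI3K, 8 Hox, 20 segmentation, 19 chromatin remodelling, 18 insulator and 24 basal transcription genes. Lists with any such gene had shares from 1.37% (mitochondrial ribosomal proteins) to 11.1% (MADF-BESS), beside the 1.16% of all genes. The other lists had none. With counts of 0 to 3 the shares are imprecise, and no list was tested.

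On the chromosome arms the regions made up 2.03% (3R) to 3.35% (2R) of all final regions, with 31 on 2L, 36 on 2R, 37 on 3L, 28 on 3R, 30 on X and 1 on chromosome 4. The number depends on the end of the final list. Among all 30000 pooled candidates, 211 regions held more than 1 summit, and the 48 that are not among the 163 each had exactly 1 summit in the final list. Just inside were Prps (1263 and 148.3), CG11317 (479.7 and 150.2) and indra (1364 and 151.6). Just outside were the regions of fz (1013 and 146.5), raw (917.6 and 146.5) and CG14322 (1768 and 145.8), whose second summits fell short of the lowest final signal of 148.3 by a small amount.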

How the data were processed

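The authors deposited 4 peak lists on dm6: 30000 candidates for each of the 2 replicates, 30000 for both pooled, and 6091 final peaks filtered by irreproducible discovery rate (IDR), per the manifests deposited with the samples. The signal of each peak is the authors' value. Aligner, peak caller and IDR threshold: not given in the sources used here. No read depth was available. Ranked by signal, the first 6091 pooled candidates are the final list.

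Rows with the same chromosome, start and end were joined into regions, each represented by its strongest summit. Start sites came from Ensembl release 115, without annotated transposable elements, and sequence from the RefSeq copy of dm6. A head-to-head pair had protein-coding start sites at most 1000 bp apart on opposite strands, both within 500 bp of the summit. A two-sided Fisher's exact test compared each of 3 shares, with Benjamini-Hochberg adjustment over the 3 and a threshold of 0.05. Intervals are exact Clopper-Pearson 95% intervals for shares and Woolf intervals for odds ratios, and the common odds ratio over signal quartiles is that of Mantel and Haenszel. They cover counting over regions, which are not replicates. Each share was recomputed with other windows, signal limits and sets of regions and in each replicate's own 6091 strongest candidates. The test was tested on simulated data. The software was scipy 1.17.1, pandas 2.3.3 and numpy 2.4.6 under Python 3.11.15, with matplotlib 3.10.9 for figures.

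The regions, the word ACGTAA and the gene lists were chosen with earlier results of these data known. Named regions are those with 3 summits, the 10 strongest, the extremes of spacing, of the ratio of signals and of low signal, head-to-head regions whose summits lie nearest to different genes, those with the word at both summits, and members of the gene lists. The regions of mura, NTPase and stx were added. One gene that the rule takes is left out. Sequences were taken by signal among regions outside arm 2R whose window of 300 bases, with summits at most 280 bp apart, holds no annotated exon.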

Additional observations from a re-analysis of the deposited data

How the results depend on the processing

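The odds ratio of the promoter share, 2.13, lost its call among peaks of signal at or above the median (1.502, Fisher's exact test, adjusted p = 0.06214) and against regions of 1 summit with another final summit within 300 bp (1.37, adjusted p = 0.08362). It went below 1 without passing against regions of 1 summit at least as wide (0.64) or as strong (0.60) as the median region with several and within signal quartiles (0.94). The limits of width and strength were set on regions of 1 summit only. All 163 regions with several were kept, so only the quartiles compare like signal. The odds ratio of ACGTAA, 9.29, was 0.60 against these wide and 1.32 against these strong regions of 1 summit, and 0.79 when the weakest summit stood for the region, all without a call. That of head-to-head pairs, 0.82, stayed between 0.64 and 0.99 without a call in all other settings but 1. Over all pooled candidates it became 1.55 (exact test, adjusted p = 0.01843). The cause of these changes was not tested. In each replicate's list alone, calls and directions stayed, with promoter odds ratios of 2.77 in replicate 1 and 1.79 in replicate 2. Recovery of both summits in both replicates was 62.0% at 50 bp and 81.0% at 200 bp. The median spacing stayed between 205 and 209 bp. The comparisons with regions of another width, with a close neighbour and within signal quartiles were chosen after seeing the data. No pairing of samples between conditions was possible because there is 1 group. The strongest and second summits of a region are paired, and they were not tested as pairs. Unknown depth, 2 replicates and intervals over regions limit the precision.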
